A study of Nasonia vitripennis with 79 samples.

Results

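Cpap3-b, Cpap3-d2 and Cht5 are genes of insect cuticular chitin, and they were taken by name as 3 of the 14621 genes counted in adults of the parasitoid wasp Nasonia vitripennis. They are described across 74 of the 79 RNA-seq libraries, which fall into 15 of the 16 groups. The wasps belonged to the WOM line, in which extra chromosome sets arose after knockdown of wasp-overruler-of-masculinization, so every group below carries that origin and no wasps of another line were used here. Poly(A) RNA came from heads or abdomens of wasps 1 day after emergence. The groups were triploid (3N) and diploid (2N) females of generations F14 and F2, and diploid (2N) and haploid (1N) males of generations F15 and F3, each as heads (FH, MH) and abdomens (FA, MA). Each group had 5 libraries, except the triploid F14 female abdomens with 4. The labels give each library its own D number and do not say whether libraries came from separate rearings. The p-values therefore rest on the spread between libraries, estimated over all groups fitted together, which can include groups beyond those compared. Males were always 1 generation later than the females they were set against.

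The 5 libraries labelled as diploid F2 female abdomens (F2_2N_FA) were left out by the rule that chose the genes, because they look like heads. In the deposited TPM, the opsin gene Lop1 had a lowest, median and highest value of 2121, 2576 and 5222 in these 5 libraries, 0, 0.165 and 5.92 in the other 14 female abdomens, and 529, 7408 and 15667 in the 20 female heads. The same 5 libraries held 16.7, 32.1 and 51.4 TPM of Cpap3-d2, against 0.11, 0.63 and 1.99 in the other female abdomens. No comparison below includes them.

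Chitin is the polysaccharide that stiffens insect cuticle. CPAP3 proteins are secreted cuticular proteins with chitin-binding domains resembling those of peritrophins, known in Drosophila as obstructors, and in flies and beetles they organise the chitin matrix that epidermal cells lay down. CHT5 is a secreted chitinase of epidermis, known in beetles and moths for degrading chitin of the old cuticle at moulting. A newly emerged adult keeps depositing and tanning cuticle. In the RefSeq gene table of the Nvit_psr_1.1 assembly, Cpap3-d2, Cpap3-d1, Cpap3-a2, Cpap3-a1 and Cpap3-b follow one another along a single chromosome, while Cpap3-e and Cht5 each lie on another. Cpap3-d2 overlaps Cpap3-d1 there, and 67 of the 74 expected counts of Cpap3-d2 were not whole numbers, against 0 of 74 for Cpap3-b and 0 of 74 for Cht5, so reads may be split between Cpap3-d2 and its neighbour. Cht5 overlaps LOC100679016 and LOC103316334, and the use of strand in the counting is not given in the sources used here.

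Library totals lay between 12634506 and 94984479 expected counts, and diploid F14 female abdomens held 45989551 or more each. Levels are CPM, counts relative to library size with TMM scaling over the 74 libraries, and a gene is called where its adjusted p from edgeR's quasi-likelihood test, with Benjamini-Hochberg adjustment over all genes tested, is below 0.05. Lop1 and the synaptic gene Syt1 summed to between 1895 and 20362 CPM in heads and to between 3.21 and 406 CPM in abdomens, and the germ plasm genes oskar and nanos summed to between 269.7 and 1002 CPM in female abdomens and to at most 15.8 CPM in male abdomens. The highest Lop1 and Syt1 sum among abdomens was that of D119 of the diploid F15 males, at 406 CPM beside 66.5 to 137 CPM in its fellow libraries, and without it no call of the 3 genes changed. These are bulk samples, in which fewer cells of a type and less RNA per cell cannot be told apart.

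The genes had 3 different distributions. Cpap3-b was a low-level gene of heads and male abdomens, highest in F3 male abdomens. It averaged 16.7 ± 6.46 CPM (SD, n = 5) in diploid F3 male abdomens and 9.64 ± 1.37 CPM in haploid ones. All 8 head groups averaged between 1.87 and 5.54 CPM. F15 male abdomens averaged 3.48 ± 1.10 CPM in diploids and 3.95 ± 1.44 CPM in haploids, within the range of the heads. Female abdomens were lowest, at 1.76 ± 1.14 CPM (n = 4) in triploid F14 wasps and 0.686 ± 0.363 CPM in diploid F14 wasps. In triploid F2 female abdomens a single read was counted over 5 libraries, in D36, and the other 4 were at 0. The floor that 3 counts set in these 5 libraries together is 0.0274 CPM. Groups next to each other in the order of means overlapped in their ranges, except that the triploid F2 female abdomens lay below the diploid F14 ones without overlap.

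Cpap3-d2 was a head gene. Its 40 heads had a lowest, median and highest level of 1.14, 9.21 and 86.9 CPM, and its 34 abdomens had 0.125, 1.01 and 5.63 CPM. Diploid F2 female heads were highest: D21 had 86.9 CPM, D22 57.5 CPM, D24 56.3 CPM, D25 35.1 CPM and D23 27.4 CPM, a mean of 52.7 ± 23.2 CPM. The next groups, diploid F3 male heads and triploid F14 female heads, averaged 14.7 ± 6.52 CPM and 14.3 ± 9.29 CPM. A single head of another group, the triploid F14 library D81 with 28.2 CPM, reached the range of the diploid F2 female heads, just above D23. The remaining head groups averaged between 4.38 and 11.6 CPM with overlapping ranges, and the abdomen groups between 0.506 and 2.60 CPM.

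Cht5 was a gene of male abdomens. Its 20 male abdomens had a lowest, median and highest level of 177, 379 and 1267 CPM, and the other 54 libraries had 0, 10.8 and 66.1 CPM, so the male abdomens overlapped none of them. Group means in male abdomens were 328 ± 138 CPM in diploid F15, 453 ± 126 CPM in haploid F15, 499.7 ± 243 CPM in diploid F3 and 504 ± 430 CPM in haploid F3 wasps, and neighbours in this order overlapped. Below them came diploid F2 female heads with 32.7 ± 14.3 CPM, triploid F14 female abdomens with 29.4 ± 25.98 CPM and diploid F3 male heads with 23.4 ± 10.8 CPM. Triploid F2 female abdomens were lowest, at 0.141 ± 0.116 CPM, which rests on 17 counts over 5 libraries. Among male abdomens, D6 of the haploid F3 group held 1267 CPM beside 227, 320, 333 and 371 CPM in its 4 fellow libraries, and D18 of the diploid F3 group held 928 CPM beside 339, 386, 389 and 457 CPM.

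**Figure D1:**
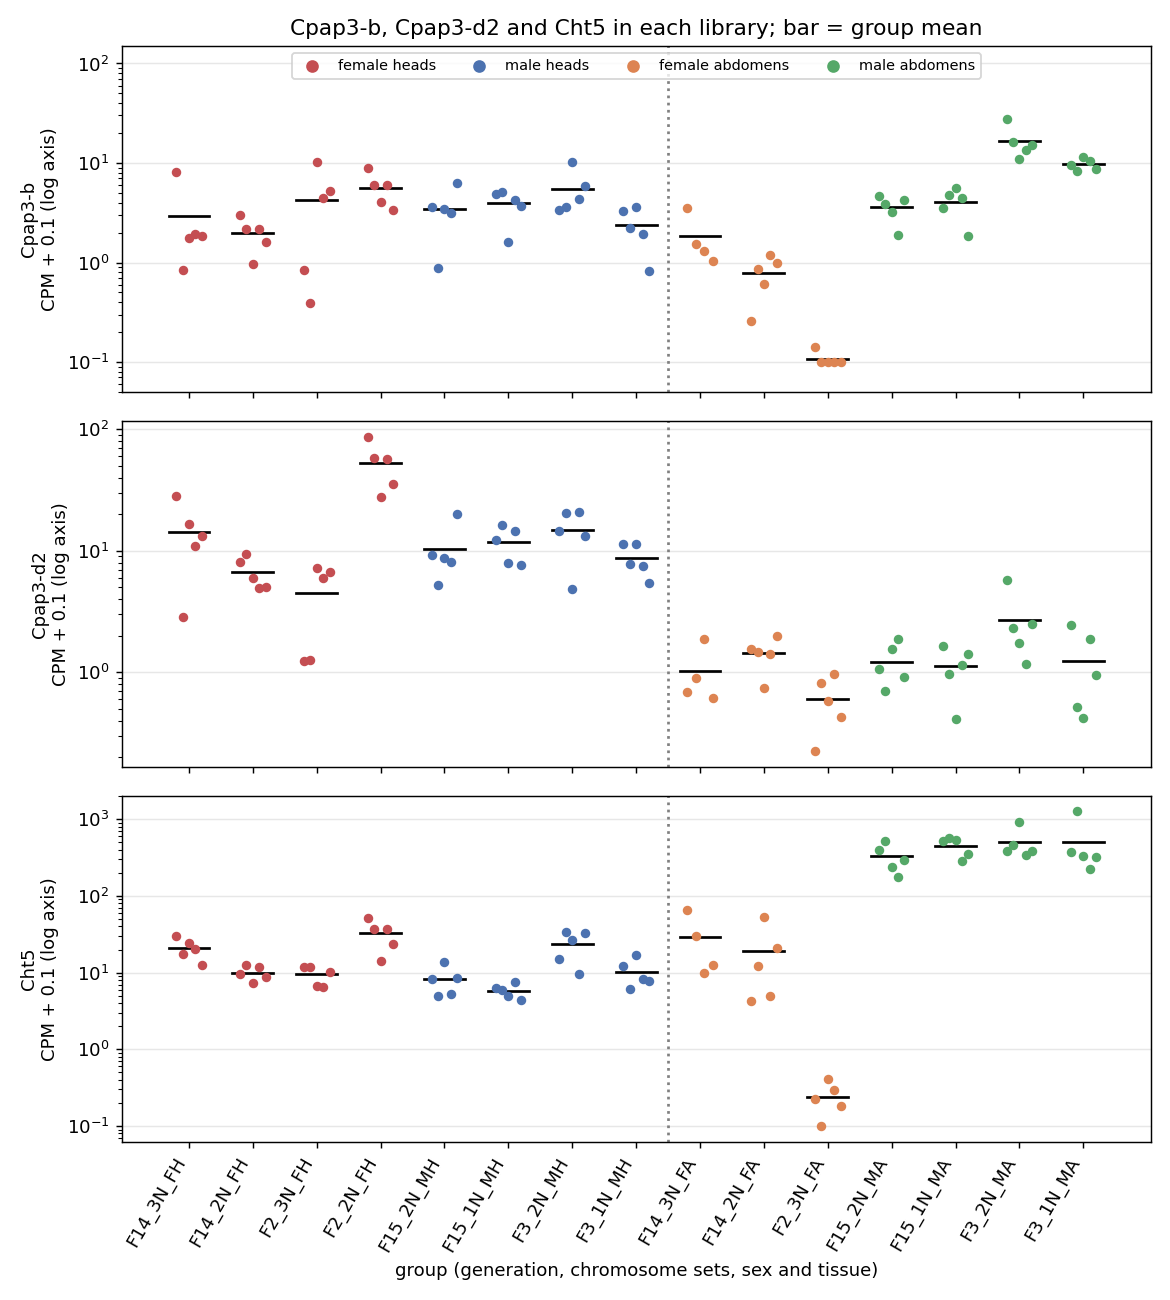
Level of Cpap3-b, Cpap3-d2 and Cht5 in CPM plus 0.1 on a log axis, 1 panel a gene, for 15 groups along the horizontal axis; points are libraries and bars are group means. Cpap3-d2 stands high in F2_2N_FH (27.4 to 86.9 CPM), Cht5 stands high in all male abdomens (177 to 1267 CPM), and Cpap3-b and Cht5 are near 0 in F2_3N_FA.

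On the length-corrected TPM scale, Cht5 was above Cpap3-b in 34 of 40 heads, 20 of 20 male abdomens and 13 of 14 female abdomens. Cpap3-d2 was above Cpap3-b in 35 of 40 heads, in 0 of 20 male abdomens and in 9 of 14 female abdomens. In haploid F3 male abdomens mean TPM was 363 for Cht5, 11.4 for Cpap3-b and 1.11 for Cpap3-d2. In diploid F2 female heads the order was different, with 58.8 TPM of Cpap3-d2, 28.7 TPM of Cht5 and 8.24 TPM of Cpap3-b.

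The 2 genes that overlap Cht5 were checked for a shared pattern. LOC100679016 lay between 23.1 and 128 CPM in heads, 1.85 and 9.05 CPM in male abdomens and 0.416 and 8.64 CPM in female abdomens. It was thus highest in heads, unlike Cht5, and about as low in abdomens of both sexes. LOC103316334 lay between 1.52 and 26.5 CPM in male abdomens and reached at most 4.10 CPM elsewhere. Like Cht5 it was highest in male abdomens, but below the 177 CPM of the lowest Cht5 value there. In F2 female heads, triploids over diploids, LOC100679016 was 0.69 ± 0.37 (edgeR, adjusted p = 0.13) and LOC103316334 0.11 ± 0.25 (adjusted p = 0.75) on the log2 scale. In F14 female heads they were -0.13 ± 0.36 (adjusted p = 0.82) and 0.40 ± 0.25 (adjusted p = 0.23).

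In F2 female heads, Cpap3-d2 and Cht5 were lower in triploids than in diploids. Cpap3-d2 had 1.14, 1.15, 5.83, 6.61 and 7.17 CPM in triploid F2 female heads, against 27.4, 35.1, 56.3, 57.5 and 86.9 CPM in diploid ones. The groups did not overlap, and the triploid mean was 12.02-fold lower. The fitted change was -3.63 ± 0.58 on the log2 scale (SE, n = 5 each; edgeR, adjusted p = 6.3e-05). Cht5 had 6.36, 6.69, 10.1, 11.8 and 11.8 CPM in triploid F2 female heads, against 14.04, 23.9, 36.7, 37.2 and 51.4 CPM in diploid ones. It too fell without overlap, by 1.82 ± 0.32 on the log2 scale (edgeR, adjusted p = 0.00014). Cpap3-b had 0.288, 0.745, 4.35, 5.08 and 10.2 CPM in triploid F2 female heads, against 3.27, 3.93, 5.85, 5.85 and 8.83 CPM in diploid ones, and was not called (log2 fold change -0.48 ± 0.70, adjusted p = 0.62). In this comparison 42.4% of all genes tested were called, beside 2 of the 3 genes here.

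The triploid F2 female heads were uneven for both Cpap3 genes. D31 and D32 held the lowest Cpap3-b (0.745 and 0.288 CPM) and the lowest Cpap3-d2 (1.14 and 1.15 CPM) of their group, and the highest Cht5 (11.8 CPM each). Their Lop1 and Syt1 sum was 3883 and 3211 CPM, against 8706 to 20362 CPM in D33, D34 and D35; the part of this in the values of the Cpap3 genes was not tested. Without D31 and D32, the calls of Cpap3-d2 and Cht5 and the absence of one for Cpap3-b were as before.

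In F14 female heads the direction was the opposite. Cht5 had 12.56, 17.5, 20.5, 24.4 and 30.3 CPM in triploid F14 female heads, against 7.12, 8.71, 9.39, 11.6 and 12.59 CPM in diploid ones, so the groups overlapped at their edge. It rose by 1.09 ± 0.31 on the log2 scale (edgeR, adjusted p = 0.012), and on log2(TPM + 1) with limma the call was lost (0.57 ± 0.28, adjusted p = 0.11), a scaling on which the median of all genes was -0.49, against -0.03 in the edgeR fit. Cpap3-d2 had 2.75, 10.9, 13.1, 16.4 and 28.2 CPM in triploid F14 female heads, against 4.83, 4.90, 5.85, 8.01 and 9.32 CPM in diploid ones, a log2 fold change of 1.11 ± 0.53 that was not called (adjusted p = 0.12). The triploid library D82B, at 2.75 CPM, lay below all diploid heads, and without it Cpap3-d2 was called (1.38 ± 0.49, adjusted p = 0.043). Cpap3-b was not called (0.60 ± 0.72, adjusted p = 0.56), and its highest library, D81 with 8.10 CPM, was also the highest for Cpap3-d2 and Cht5. The Lop1 and Syt1 sum was 1895 to 4510 CPM in triploid F14 female heads, lowest in D81, and 3433 to 8338 CPM in diploid ones. Syt1 was called higher in triploids and Lop1 was not called. The part of this in the values of the 3 genes was not tested. In this comparison 29.7% of genes were called.

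The difference between the ploidy effects of F14 and F2 was tested directly in female heads. It was 4.74 ± 0.78 for Cpap3-d2 (edgeR, adjusted p = 0.00028) and 2.92 ± 0.44 for Cht5 (adjusted p = 0.00014) on the log2 scale, and 1.08 ± 1.01 for Cpap3-b (adjusted p = 0.47). Both calls were made under every alternative computed. Of all genes tested, 24.3% were called for this difference.

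The summed level of the muscle genes Tm1, Tm2 and Zasp66, most of it Tm1, was 1042 to 7993 CPM in triploid F14 female heads and 840 to 1166 CPM in diploid F14 ones, and 441 to 683 CPM in triploid F2 female heads and 2045 to 6650 CPM in diploid F2 ones. Tm1 and Zasp66 were called higher in F14 triploids and lower in F2 triploids, while Tm2, at 50.02 to 83.2 CPM over the 20 female heads, was called in neither generation. The highest muscle sum, 7993 CPM, was that of D81. In triploid F14 and in diploid F2 female heads, the libraries had the same order by Cht5 as by the muscle sum. In diploid F14 and triploid F2 female heads the orders differed. The part of muscle RNA in the values of Cpap3-d2 and Cht5 was not tested. Within groups, the deviations of log2 CPM from the group mean over the 40 heads had r = 0.55 between Cht5 and the muscle sum, 0.37 for Cpap3-d2 and 0.25 for Cpap3-b, as a description over libraries that share their depth and scaling.

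**Figure D2:**
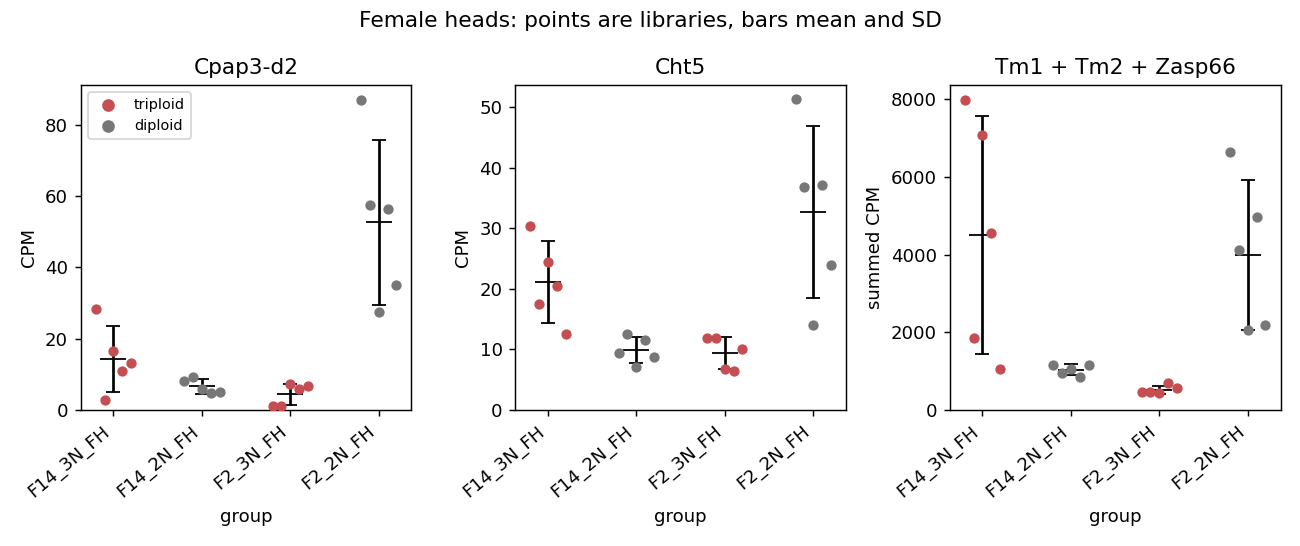
Cpap3-d2 and Cht5 in CPM, and the summed CPM of the muscle genes Tm1, Tm2 and Zasp66, in the 4 groups of female heads; points are libraries and bars show the mean and SD, with triploids in red and diploids in grey. All 3 panels are low in F2_3N_FH and F14_2N_FH and high in F2_2N_FH, where Cpap3-d2 averages 52.7 CPM and Cht5 32.7 CPM.

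In F3 male heads Cht5 was higher in diploids. It had 9.36, 14.9, 26.8, 32.5 and 33.4 CPM in diploid F3 male heads, against 5.93, 7.58, 8.14, 12.02 and 16.8 CPM in haploid ones, with overlap between D14 and D11 of the diploids and D1 and D3 of the haploids. The log2 fold change was 1.20 ± 0.35 (edgeR, adjusted p = 0.026). The call was lost when any of D12, D15, D1A, D4 or D5 was left out (adjusted p up to 0.07), on log2(TPM + 1) (0.92 ± 0.32, adjusted p = 0.079) and with the 2 groups fitted alone (1.20 ± 0.39, adjusted p = 0.11). Cpap3-b (1.23 ± 0.47, adjusted p = 0.076) and Cpap3-d2 (0.76 ± 0.37, adjusted p = 0.16) were not called by edgeR. DESeq2 called Cpap3-b higher in diploids (1.23, adjusted p = 0.041). Cpap3-d2 gained a call in 1 of 10 edgeR fits without 1 library. The muscle sum was 540 to 1287 CPM in diploid and 614 to 1067 CPM in haploid F3 male heads, and no muscle gene was called. It was highest in D15 and D12 of the diploids, which had the most Cht5, and in D5 of the haploids, with 7.58 CPM of Cht5. The Lop1 and Syt1 sum was 3383 to 9145 CPM in diploids, highest in D13, and 3410 to 6780 CPM in haploids. The part of these in the values of the 3 genes was not tested. Of all genes 16.2% were called.

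In F15 male heads 0 of the 3 genes were called by edgeR, 0 by DESeq2 and 0 at an unadjusted p under 0.05, beside 0.109% of all genes. Cht5 averaged 8.08 ± 3.58 CPM in diploid and 5.74 ± 1.23 CPM in haploid F15 male heads, Cpap3-d2 10.2 ± 5.77 CPM and 11.6 ± 3.95 CPM, and Cpap3-b 3.38 ± 1.91 CPM and 3.82 ± 1.41 CPM. The difference between the F15 and F3 ploidy effects in male heads was called for 0 of the 3 by edgeR and 0 by DESeq2, with 1, Cpap3-b, at an unadjusted p under 0.05 (-1.41 ± 0.65, adjusted p = 0.22), beside 3.57% of all genes. The loss of the Cht5 call between F3 and F15 is therefore not shown to be a difference (-0.70 ± 0.49, adjusted p = 0.41).

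In F14 female abdomens Cpap3-b was higher in triploids, at low levels. It had 0.944, 1.22, 1.44 and 3.45 CPM in triploid F14 female abdomens, against 0.160, 0.510, 0.769, 0.894 and 1.10 CPM in diploid ones, so D90A of the triploids lay within the diploid range. The log2 fold change was 1.61 ± 0.58 (edgeR, adjusted p = 0.041). The call was lost when any of D86, D87, D96, D97, D99 or D100 was left out, with an adjusted p of up to 0.19 without D86 (1.02 ± 0.58). It was lost also with no filter on low counts (adjusted p = 0.061) and with the 2 groups fitted alone (adjusted p = 0.067). Cht5 had 9.65, 12.4, 29.6 and 66.1 CPM in triploid F14 female abdomens, against 4.15, 4.93, 12.2, 20.6 and 52.5 CPM in diploid ones, and was not called (0.91 ± 0.73, adjusted p = 0.34). Cpap3-d2 averaged 0.918 ± 0.584 CPM in triploids and 1.33 ± 0.444 CPM in diploids, and was not called (-0.29 ± 0.52, adjusted p = 0.68), although limma on log2(TPM + 1) called it lower (-0.55 ± 0.15, adjusted p = 0.011), with the median of all genes at -0.22 on that scaling. The muscle sum was 1583 to 3769 CPM in triploids and 1064 to 1278 CPM in diploids, highest in D86, the library with the most Cpap3-b and Cht5. The Lop1 and Syt1 sum was 30.3 to 102.6 CPM in triploids and 18.5 to 28.9 CPM in diploids, again highest in D86, with both genes called higher. The oskar and nanos sum was 269.7 to 690 CPM in triploids and 653 to 851 CPM in diploids, lowest in D86, with nanos called lower. The part of these in the values of the 3 genes was not tested. Of all genes 37.8% were called here.

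In F3 male abdomens 0 of the 3 genes were called by edgeR, and 2 had an unadjusted p under 0.05. Cpap3-b had 10.99, 13.5, 14.9, 16.3 and 27.7 CPM in diploid F3 male abdomens, against 8.18, 8.54, 9.53, 10.4 and 11.5 CPM in haploid ones. These overlapped through a single diploid library, D18, and the log2 fold change was 0.80 ± 0.29 (edgeR, adjusted p = 0.064). DESeq2 called 1 of the 3, Cpap3-b (0.76 ± 0.29, adjusted p = 0.045), and so did the edgeR fit of the 2 groups alone (0.75 ± 0.23, adjusted p = 0.038). Cpap3-d2 averaged 2.60 ± 1.78 CPM in diploids and 1.15 ± 0.891 CPM in haploids (1.18 ± 0.56, adjusted p = 0.16). Cht5 was not called (-0.01 ± 0.43, adjusted p = 0.99), and its value followed single libraries, at 0.68 ± 0.33 without D6 (adjusted p = 0.20) and -0.36 ± 0.42 without D18 (adjusted p = 0.63). Of all genes 16.6% were called.

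In F15 male abdomens 0 of the 3 were called by edgeR, 0 by DESeq2 and 0 at an unadjusted p under 0.05, beside 11.1% of all genes. The log2 fold changes of diploids over haploids were -0.20 ± 0.29 for Cpap3-b, 0.13 ± 0.56 for Cpap3-d2 and -0.48 ± 0.43 for Cht5. The difference between the F15 and F3 effects in male abdomens was called for 0 of 3 by edgeR and 0 by DESeq2, with 1, Cpap3-b, at an unadjusted p under 0.05 (-1.001 ± 0.41, adjusted p = 0.12), beside 10.4% of all genes.

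**Figure D3:**
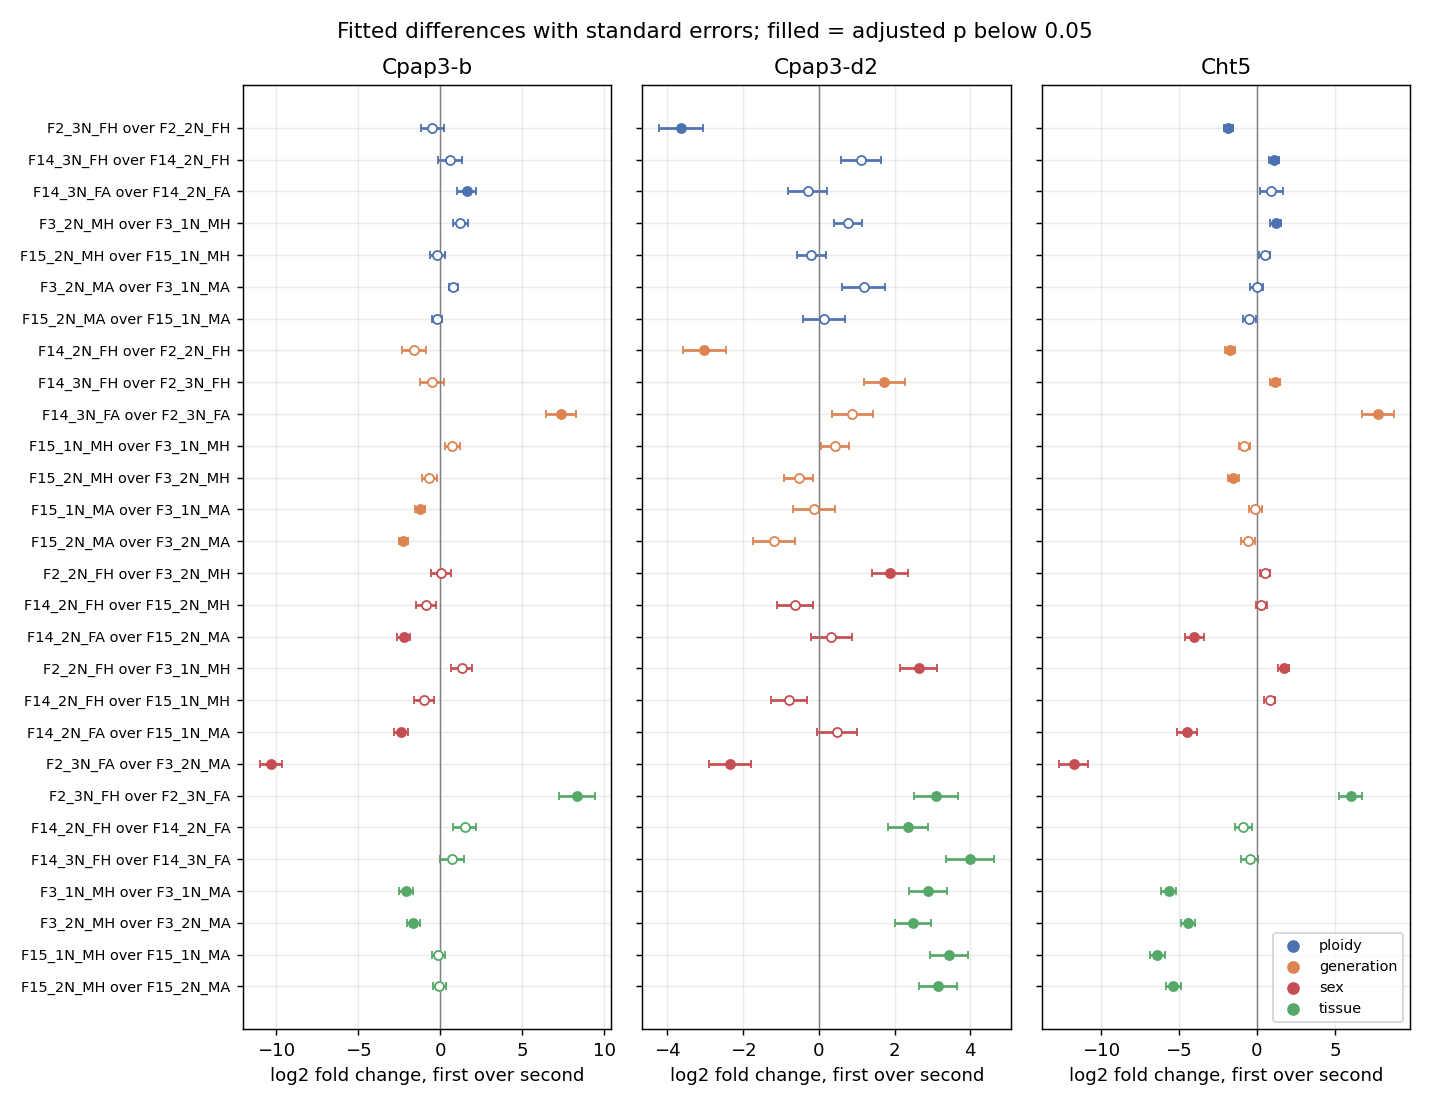
Log2 fold change of the first over the second group with its SE for Cpap3-b, Cpap3-d2 and Cht5, in 28 comparisons of ploidy, generation, sex and tissue; filled points have an adjusted p below 0.05, and the horizontal scales differ between panels. Cpap3-d2 is filled and positive in all 7 head over abdomen comparisons, and the largest values of Cpap3-b and Cht5 involve F2_3N_FA.

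Across generations, Cpap3-d2 and Cht5 were lower in F14 than in F2 diploid female heads. Cpap3-d2 averaged 6.58 ± 2.00 CPM in F14 and 52.7 ± 23.2 CPM in F2 diploid female heads, without overlap (-3.02 ± 0.56, edgeR, adjusted p = 0.0011). Cht5 averaged 9.88 ± 2.21 CPM in F14 and 32.7 ± 14.3 CPM in F2, also without overlap (-1.75 ± 0.32, adjusted p = 0.00084). Cpap3-b had 0.862, 1.51, 2.05, 2.07 and 2.87 CPM in F14 diploid female heads, against 3.27, 3.93, 5.85, 5.85 and 8.83 CPM in F2 ones. It did not overlap either, yet it was not called (-1.58 ± 0.72, adjusted p = 0.13) in the fit of all female heads. With the 2 groups fitted alone it was called (-1.58 ± 0.36, adjusted p = 0.0041). The whole table had 19.4% of genes called.

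Triploid female heads went the other way between generations for 2 of the 3. Cht5 was higher in F14 triploid heads, at 12.56 to 30.3 CPM, than in F2 triploid heads, at 6.36 to 11.8 CPM (1.17 ± 0.31, edgeR, adjusted p = 0.017), and the call was lost with the 2 groups fitted alone (1.14 ± 0.29, adjusted p = 0.063). Cpap3-d2 averaged 14.3 ± 9.29 CPM in F14 and 4.38 ± 2.99 CPM in F2 triploid heads (1.73 ± 0.55, adjusted p = 0.039). That call was lost without any of D31, D32, D34, D81 or D83B, without D31 and D32 together (1.14 ± 0.51, adjusted p = 0.10), on log2(TPM + 1) (adjusted p = 0.051) and with the 2 groups fitted alone (adjusted p = 0.20). Cpap3-b was not called (-0.50 ± 0.71, adjusted p = 0.66), and 15.6% of all genes were. These comparisons share their F14 and F2 groups with the ploidy comparisons above.

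In triploid female abdomens 2 of the 3 genes were near 0 in F2 and measurable in F14. Cpap3-b had 138 counts over 4 F14 libraries and 1 count over 5 F2 libraries, a ratio of 219 with a 95% counting interval of 38.7 to 8719 (fitted 7.34 ± 0.91, edgeR, adjusted p = 7.8e-06). Cht5 had 9.65, 12.4, 29.6 and 66.1 CPM in F14 triploid female abdomens, against 0, 0.0831, 0.125, 0.190 and 0.308 CPM in F2 ones (7.73 ± 1.02, adjusted p = 1.3e-05). Cpap3-d2 averaged 0.918 ± 0.584 CPM in F14 and 0.506 ± 0.298 CPM in F2 and was not called (0.89 ± 0.54, adjusted p = 0.15). These F2 abdomens stood apart across the whole table, with 75.1% of genes called. Their muscle sum was 593 to 643 CPM, against 1583 to 3769 CPM in F14 triploid abdomens, Zasp66 averaged 2.78 CPM in F2 and 231 CPM in F14, and the oskar and nanos sum was 896 to 1002 CPM in F2, against 269.7 to 690 CPM in F14. The part of tissue makeup in these differences was not tested.

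In male heads only Cht5 in diploids was called between generations. It had 4.80, 5.21, 8.20, 8.46 and 13.7 CPM in F15 diploid male heads, against 9.36, 14.9, 26.8, 32.5 and 33.4 CPM in F3 ones, with D113 of F15 above D14 of F3. It fell by 1.52 ± 0.35 (edgeR, adjusted p = 0.0063), with 18.3% of all genes called. In haploid male heads 0 of the 3 were called by edgeR, 0 by DESeq2, and 1, Cht5, had an unadjusted p under 0.05 (-0.83 ± 0.35, adjusted p = 0.13), with 14.4% of all genes called.

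In male abdomens only Cpap3-b was called between generations, and in both ploidies. It averaged 3.48 ± 1.10 CPM in F15 and 16.7 ± 6.46 CPM in F3 diploid male abdomens, and fell by 2.24 ± 0.30 (edgeR, adjusted p = 4.1e-05), with 35.4% of all genes called. In haploids it averaged 3.95 ± 1.44 CPM in F15 and 9.64 ± 1.37 CPM in F3 male abdomens, and fell by 1.24 ± 0.29 (adjusted p = 0.0045), with 29% of all genes called. Neither ploidy had any overlap between generations, as every F3 male abdomen was at or above 8.18 CPM and every F15 one at or below 5.54 CPM. Cht5, the gene with the highest level in these abdomens, was not called in diploids (-0.58 ± 0.43, adjusted p = 0.30) or haploids (-0.11 ± 0.43, adjusted p = 0.87). Cpap3-d2 was not called either (-1.17 ± 0.55, adjusted p = 0.11 in diploids and -0.12 ± 0.56, adjusted p = 0.89 in haploids). The muscle sums overlapped, at 1417 to 2028 CPM in F15 and 1467 to 2819 CPM in F3 diploid male abdomens. In haploids they were 1631 to 2066 CPM in F15 and 1766 to 2837 CPM in F3, where only D6 lay within the F15 range. Syt1 was called lower in F15 in both ploidies, at 66.1 to 121 CPM in F15 and 110 to 239 CPM in F3 male abdomens. Within groups, over the 34 abdomens, the deviations of log2 CPM of Cpap3-b had r = 0.54 with those of the muscle sum (Spearman's rho 0.62), and the part of this in the values of Cpap3-b was not tested.

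Females and males differed in early heads through Cpap3-d2. Diploid F2 female heads had 27.4 to 86.9 CPM, above all diploid F3 male heads at 4.72 to 20.8 CPM (1.88 ± 0.48, edgeR, adjusted p = 0.0025; 37.1% of genes called) and all haploid F3 male heads at 5.38 to 11.3 CPM (2.63 ± 0.49, adjusted p = 0.00016; 24.5% of genes called). Cht5 was called against haploid males only (1.71 ± 0.34, adjusted p = 0.00036), and was 0.51 ± 0.33 against diploid males (adjusted p = 0.23). Cpap3-b was not called against diploid (0.06 ± 0.60, adjusted p = 0.95) or haploid males (1.31 ± 0.62, adjusted p = 0.12). The muscle sum was 2045 to 6650 CPM in diploid F2 female heads and 540 to 1287 CPM in F3 male heads, with Tm1 and Zasp66 called higher in both comparisons; its part in these values was not tested.

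In late heads the calls of a difference from haploid males depended on the groups fitted. With all 8 head groups in the fit, for diploid F14 female over diploid F15 male heads, 0 of 3 were called by edgeR, 0 by DESeq2 and 0 at an unadjusted p under 0.05, beside 9.08% of all genes. Against haploid F15 male heads, 0 of 3 were called by edgeR, 0 by DESeq2 and 1, Cht5, had an unadjusted p under 0.05 (0.81 ± 0.34, adjusted p = 0.14), beside 9.73% of all genes. With those 2 groups fitted alone all 3 were called, Cpap3-b (-1.06 ± 0.37, adjusted p = 0.046) and Cpap3-d2 (-0.85 ± 0.26, adjusted p = 0.028) lower and Cht5 (0.75 ± 0.19, adjusted p = 0.011) higher in the female heads. Cpap3-d2 averaged 6.58 ± 2.00 CPM in these female heads, 10.2 ± 5.77 CPM in diploid and 11.6 ± 3.95 CPM in haploid male heads.

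In abdomens Cht5 and Cpap3-b were lower in females. Cht5 averaged 18.9 ± 19.9 CPM in diploid F14 female abdomens, 17.4-fold below diploid F15 male abdomens at 328 ± 138 CPM (-4.00 ± 0.63, edgeR, adjusted p = 1.3e-06). It was 23.98-fold below haploid F15 male abdomens at 453 ± 126 CPM (-4.46 ± 0.65, adjusted p = 3e-07). Cpap3-b fell by 2.22 ± 0.41 against diploid males (adjusted p = 1.3e-05) and by 2.40 ± 0.41 against haploid males (adjusted p = 4.7e-06). Cpap3-d2 was not called (0.33 ± 0.53, adjusted p = 0.57 and 0.49 ± 0.53, adjusted p = 0.40). The background is high, with 80.6% of genes called against diploid and 78.6% against haploid males, in tissues that hold different gonads.

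The triploid F2 female abdomens were lower than the diploid F3 male abdomens for all 3 genes, where 87.9% of genes were called and the median log2 fold change of all genes was -0.47. Cht5 averaged 0.141 ± 0.116 CPM in these females and 499.7 ± 243 CPM in these males (-11.73 ± 0.94, edgeR, adjusted p = 9.4e-13). Cpap3-b had 1 count in the females and 1614 in the males, a 1752-fold lower level with a 95% counting interval of 314 to 69236 (adjusted p = 9.8e-15). Cpap3-d2 averaged 0.506 ± 0.298 CPM in the females and 2.60 ± 1.78 CPM in the males (-2.34 ± 0.57, adjusted p = 0.00034).

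Heads and abdomens of the same sex, generation and ploidy were compared in 7 pairs of groups. Cpap3-d2 was higher in heads in 7 of 7. Its log2 fold change of heads over abdomens was 3.99 ± 0.64 in triploid F14 females (edgeR, adjusted p = 2.4e-06; 66.9% of genes called), 2.36 ± 0.53 in diploid F14 females (adjusted p = 0.00022; 74.9% called) and 3.09 ± 0.58 in triploid F2 females (adjusted p = 1.5e-05; 84.5% called). In males it was 3.14 ± 0.50 in diploid F15 (adjusted p = 1e-06; 67.3% called), 3.43 ± 0.50 in haploid F15 (adjusted p = 3e-07; 62.6% called), 2.48 ± 0.47 in diploid F3 (adjusted p = 2.5e-05; 66.2% called) and 2.89 ± 0.50 in haploid F3 wasps (adjusted p = 4.1e-06; 66.8% called). All were called under every alternative computed.

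Cht5 was lower in heads than in abdomens in 4 of 4 male pairs. Mean levels were 8.08 CPM in heads and 328 CPM in abdomens of diploid F15 males (-5.34 ± 0.48, edgeR, adjusted p = 4.7e-12), and 5.74 CPM and 453 CPM in haploid F15 males (-6.37 ± 0.50, adjusted p = 2.5e-13). They were 23.4 CPM in heads and 499.7 CPM in abdomens of diploid F3 males (-4.43 ± 0.46, adjusted p = 1.6e-10), and 10.1 CPM and 504 CPM in haploid F3 males (-5.66 ± 0.49, adjusted p = 1.5e-12). In F14 females Cht5 was not called (-0.47 ± 0.56, adjusted p = 0.47 in triploids and -0.88 ± 0.54, adjusted p = 0.14 in diploids). In triploid F2 females it was higher in heads, at 9.36 ± 2.68 CPM, against 0.141 ± 0.116 CPM in abdomens (6.01 ± 0.74, adjusted p = 9.8e-09).

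Cpap3-b had no constant tissue direction. It was lower in heads of F3 males, by 1.63 ± 0.40 in diploids (edgeR, adjusted p = 0.00056) and by 2.10 ± 0.41 in haploids (adjusted p = 3.4e-05). In F15 males it was not called (-0.06 ± 0.40, adjusted p = 0.90 in diploids and -0.12 ± 0.40, adjusted p = 0.81 in haploids). In triploid F2 females its heads had 400 counts against 1 in abdomens, a ratio of 439 with a 95% counting interval of 78.3 to 17365 (adjusted p = 2.8e-08). In F14 females it was 0.71 ± 0.72 in triploids (adjusted p = 0.40) and 1.49 ± 0.68 in diploids. The diploid value lay just above the threshold (adjusted p = 0.05 after rounding), and RLE scaling (1.81 ± 0.69, adjusted p = 0.019) and DESeq2 (1.82 ± 0.67, adjusted p = 0.0098) called it.

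The other 4 Cpap3 genes in the table were Cpap3-a1, Cpap3-a2, Cpap3-d1 and Cpap3-e, listed with earlier results of these data known. Cpap3-d1, the neighbour of Cpap3-d2, averaged between 19.5 and 89.6 CPM in head groups and between 0.160 and 12.9 CPM in abdomen groups. Cpap3-a1 was a head transcript, with 0.410 to 13.4 CPM in heads and at most 0.285 CPM in abdomens, where 23 of 34 libraries were at 0. Cpap3-e had its highest group mean in haploid F15 male heads, at 31.8 ± 9.61 CPM.

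In F2 female heads the overlapping neighbour Cpap3-d1 was -0.44 ± 0.73 in triploids over diploids (edgeR, adjusted p = 0.66), beside -3.63 ± 0.58 for Cpap3-d2. Cpap3-a1 (0.08 ± 0.66, adjusted p = 0.93), Cpap3-a2 (0.31 ± 0.54, adjusted p = 0.67) and Cpap3-e (-0.73 ± 0.60, adjusted p = 0.35) were not called either. Cpap3-d1 averaged 68.7 ± 89.3 CPM in triploid and 89.6 ± 30.2 CPM in diploid F2 female heads, with D33 of the triploids at 220.9 CPM. In F14 female heads 1 of the 4 was called, Cpap3-e, lower in triploids (-2.96 ± 0.66, adjusted p = 0.0023), beside 29.7% of all genes called. In F14 female abdomens Cpap3-d1 rose in triploids (2.63 ± 0.75, adjusted p = 0.014), and in F3 male heads it rose in diploids (1.24 ± 0.39, adjusted p = 0.038).

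Between generations in male abdomens, Cpap3-d1 fell in F15 as Cpap3-b did, by 1.47 ± 0.38 in diploids (edgeR, adjusted p = 0.0059) and by 1.69 ± 0.38 in haploids (adjusted p = 0.0034). Cpap3-e was not called there (0.12 ± 0.26, adjusted p = 0.74 in diploids and 0.14 ± 0.26, adjusted p = 0.72 in haploids). Of heads over abdomens, all 4 were called higher in heads in triploid F2 females, diploid F14 females and haploid F15 males. Of all genes, 84.5%, 74.9% and 62.6% were called in these pairs, in either direction. The remaining pairs had 2 or 3 called higher, beside 66.2% to 67.3% of all genes called. Cpap3-e was called lower in heads of triploid F14 females (-2.004 ± 0.70, adjusted p = 0.013).

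**Figure D4:**
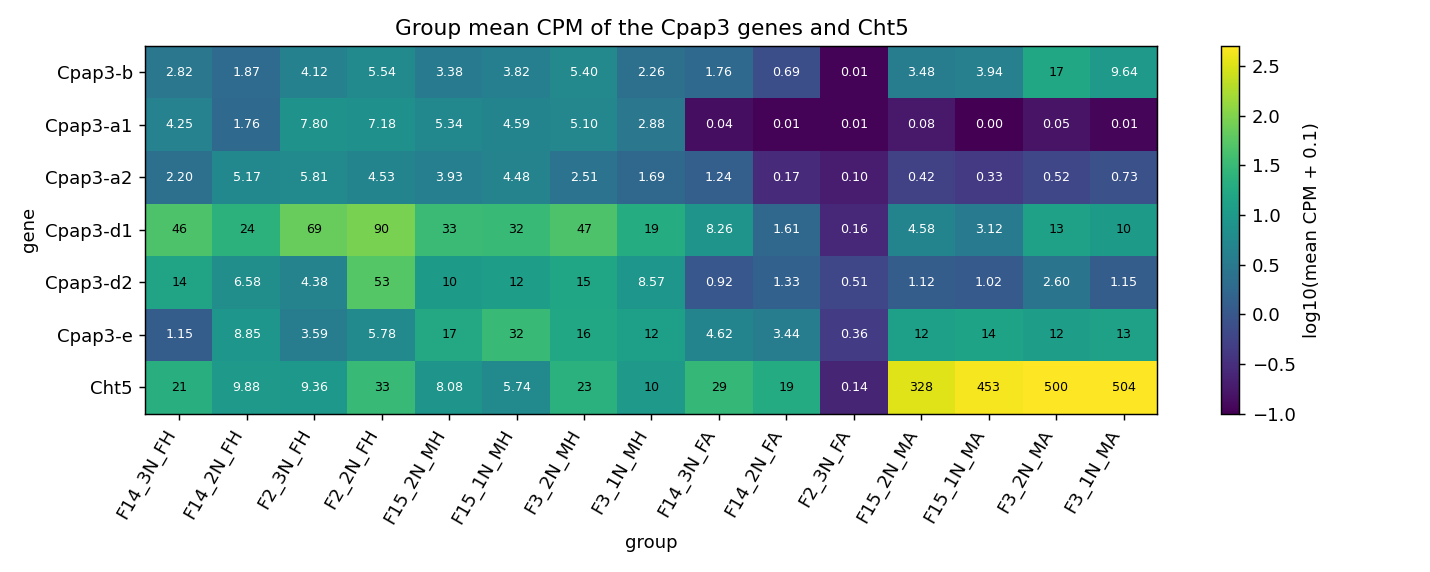
Mean CPM of 6 Cpap3 genes and Cht5 in each of 15 groups, with the mean printed in each cell and colour showing log10 of the mean plus 0.1; heads are on the left and abdomens on the right. Cpap3-d1 and Cpap3-d2 are brightest in F2_2N_FH (89.6 and 52.7 CPM), Cht5 in male abdomens, and F2_3N_FA is dark for every gene.

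Within groups, the neighbouring Cpap3 genes varied together from head to head. Over 40 heads, deviations of log2 CPM from the group mean had r = 0.92 between Cpap3-b and Cpap3-d1 (Spearman's rho 0.90), 0.77 with Cpap3-a1, 0.72 with Cpap3-a2 and 0.72 with Cpap3-d2. Cpap3-d2 had r = 0.79 with Cpap3-a2 and 0.74 with Cpap3-d1. Reads may be split between Cpap3-d2 and Cpap3-d1, which overlap, and the part of this in their r was not tested. Cpap3-e, on another chromosome, had r = -0.08 with Cpap3-b and -0.25 with Cpap3-d2. Cht5 had r = 0.24 with Cpap3-b and 0.17 with Cpap3-d2.

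Leaving out the 2 heads farthest from the median of Cpap3-b gave r = 0.90 with Cpap3-d1 and 0.66 with Cpap3-d2, and leaving out D31 and D32 gave 0.91 and 0.65. These are descriptions over libraries that share depth and scaling, and the deviations of Cpap3-b also had r = 0.64 with the head markers Lop1 and Syt1. In the 34 abdomens, Cpap3-b had r = 0.21 with Cpap3-d1 and Cpap3-d2 had r = -0.13 with Cpap3-d1. Counts of Cpap3-d2 were low there, at 3 to 179 a library. Those of Cpap3-b ran from 0 or 1 in triploid F2 females to 507 in a diploid F3 male library.

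Other cuticle genes were matched by symbol, and of the chitin synthases, deacetylases, N-acetylglucosaminidases and further chitinases none was matched, so they are not analysed here. Of 35 CPR genes, which encode cuticular proteins with the Rebers-Riddiford chitin-binding motif, 17 were tested in female heads. In F2, 1 was called higher and 7 lower in triploids, with a median log2 fold change of -1.30 beside 0.05 over all genes, of which 42.4% were called. In F14, 9 were called higher and 2 lower in triploids, with a median of 2.88 beside -0.03 over all genes, of which 29.7% were called. For the difference between generations, 10 of 17 were called higher and 0 lower, beside 24.3% of all genes called. On log2(TPM + 1), where the median of all genes was -0.49, 5 rather than 9 were called higher in F14, and without D31 and D32, 3 rather than 7 were called lower in F2.

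Of 7 apidermin, Tweedle and CPLCP genes, 5 were tested in female heads. In F2 triploids 0 were called higher and 1 lower, beside 42.4% of all genes called. In F14 triploids 3 were called higher and 0 lower, beside 29.7% of all genes called. Of 9 yellow-family genes, whose Drosophila founder acts in cuticle pigmentation, 8 were tested there. Against the same shares of all genes, 0 were called higher and 1 lower in F2 triploids, and 2 higher and 0 lower in F14 triploids. On log2(TPM + 1), with its median of all genes at -0.49, this last count was 0 higher and 3 lower. In triploid F14 over F2 female abdomens 12 of 14 CPR genes and 7 of 8 yellow-family genes were called higher and 0 lower, beside 75.1% of all genes called in either direction. In triploid F2 female over diploid F3 male abdomens 2 of 20 CPR genes were called higher and 17 lower, beside 87.9% of all genes called.

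In F15 over F3 male abdomens, 1 of 15 CPR genes was called higher and 6 lower in diploids, and 2 higher and 4 lower in haploids, beside 35.4% and 29% of all genes called. In F3 male heads 6 of 16 CPR genes were called higher and 0 lower in diploids, beside 16.2% of all genes called. Eth, the ecdysis-triggering hormone gene and the single moulting gene matched, averaged at most 1.34 CPM in any group and was not tested in heads. It was at 0 in all diploid F14 and triploid F2 female abdomens and in all haploid F15 male abdomens, and at 0 to 3.33 CPM in diploid F15 and 0 to 2.62 CPM in diploid F3 male abdomens.

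By likeness of group mean log2 CPM over the 15 groups, among 10602 genes with at least 5 CPM in a group, the 5 genes nearest to Cht5 were LOC100680456 (r = 0.98), LOC100678411 (0.98), LOC100121338 (0.98), LOC100114140 (0.98) and LOC100114621 (0.98). All 5 had their highest mean in haploid F3 or haploid F15 male abdomens and their lowest in triploid F2 female abdomens. Such shared extremes, here and for Cpap3-b and Cpap3-d2 below, follow largely from choosing the genes by these same means. The 5 nearest to Cpap3-b were LOC103315966 (r = 0.97), LOC100120761 (0.96), LOC100119733 (0.95), LOC100116956 (0.95) and LOC107980555 (0.95), all highest in diploid F3 male abdomens and lowest in triploid F2 female abdomens. The 5 nearest to Cpap3-d2 were LOC100120119 (r = 0.96), LOC100680508 (0.94), LOC100120416 (0.94), LOC100123311 (0.94) and LOC100117078 (0.94). Of these, 4 were highest in diploid F2 female heads, and LOC100120416 was highest in haploid F3 male heads. Over the 74 single libraries the order was less stable. LOC100680508 ranked 182nd for Cpap3-d2 (r = 0.81) and LOC107980555 158th for Cpap3-b (r = 0.81), while the genes named for Cht5 ranked 14th or nearer.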

How the data were processed

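Poly(A) libraries were made with a NEBNext Ultra kit, per the labels' protocols. The authors deposited expected counts and TPM per gene, and the submitters' processing notes name STAR 2.7.11a and RSEM 1.3.1; the sources used here do not give the genome build or annotation. The expected counts deposited by the authors were rounded to whole numbers. The TPM deposited by the authors, for 14613 genes, served for levels between genes and as an alternative. Groups were taken from sample titles. edgeR 4.0.16 in R 4.3.3 (TMM, filterByExpr with a minimum count of 10, robust quasi-likelihood F test, Benjamini-Hochberg adjustment over all genes tested) fitted 1 mean a group: the groups of 1 sex and tissue for ploidy and generation, of 1 tissue for sex, of 1 sex for tissue. This gave 31 comparisons. Alternatives were RLE scaling, no filter, DESeq2 1.42.0, limma-trend 3.58.1 on log2(TPM + 1) and log2(TPM + 0.1), other sets of groups in the fit, and each library left out. The scripts were tested on simulated data. In each of 146 within-group pairs the counts differed by more than sampling noise (chi-square over its degrees of freedom at least 7.57). Each library was counted as 1 replicate, although such a check cannot show separate rearings. The rule for named genes was the 3 members throughout, the 5 genes most like each, and lists matched by symbol with at most 3 members named a comparison; Cpap3 genes beyond this rule, and the genes overlapping Cht5, were named after their values were seen. The members and lists were chosen with earlier results of these data known. Counting intervals cover counting error only. Gene order came from the RefSeq table of Nvit_psr_1.1, whose coordinates are not printed.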

Additional observations from a re-analysis of the deposited data

Results flagged for a closer look

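In 5 of 45 combinations of a gene and a group, 1 library lay far from the others, each time the highest. Chance alone does this in about 1 of 20 where values are normally spread, and the spread of these CPM was not tested. That rate does not cover Cpap3-b in triploid F2 female abdomens, where a single count beside libraries at 0 always stands apart. Cpap3-b was 8.096 CPM in the triploid F14 female head library D81, against at most 1.84 CPM in the other 4, and 0.04164 CPM (1 count) in D36 of the triploid F2 female abdomens, against 0 in the other 4. Cpap3-d2 was 20.15 CPM in the diploid F15 male head library D115, against at most 9.10 CPM in the other 4, and D115 was also highest for Cpap3-b (6.16 CPM). Cht5 was 1267 CPM in D6 of the haploid F3 male abdomens and 927.7 CPM in D18 of the diploid ones. In D6 and D18 Cpap3-b was the lowest of its group, at 8.18 and 10.99 CPM.

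The ploidy effect differed between F14 and F2 female heads by 4.744 for Cpap3-d2 and 2.915 for Cht5 on the log2 scale, as tested above.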

How the results depend on the processing

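For the 3 genes in 31 comparisons, 540 of 569 alternative values kept their side of the threshold, 11 lost a call and 18 gained one. Of the 569, 0 changed direction where the reported or the alternative value was called. Changes of sign between values not called were left uncounted. Of 1011 fits without 1 library, 16 lost and 5 gained a call, and some values not called changed sign. Cpap3-b in F14_3N_FH over F14_2N_FH lay between -0.33 and 0.84 in these fits, and Cht5 in F3_2N_MA over F3_1N_MA between -0.36 and 0.68. No paired analysis was possible because the library numbers are not shared between groups. Log2 fold changes follow, first group over second; the cause of each change was not tested. Cht5 in F14_3N_FH over F14_2N_FH was 0.57 on log2(TPM + 1) and 0.61 on log2(TPM + 0.1). Cpap3-b in F14_3N_FA over F14_2N_FA was 1.55 with no filter and 1.59 with the 2 groups alone, and Cpap3-d2 was -0.55 on log2(TPM + 1) and -1.02 on log2(TPM + 0.1). In F3_2N_MH over F3_1N_MH, Cpap3-b was 1.23 with DESeq2, and Cht5 was 0.92 on log2(TPM + 1), 0.98 on log2(TPM + 0.1) and 1.20 with the 2 groups alone. Cpap3-b in F3_2N_MA over F3_1N_MA was 0.76 with DESeq2, 0.75 on log2(TPM + 1) and 0.75 with the 2 groups alone. In F14_3N_FH over F2_3N_FH, Cpap3-d2 was 1.36 on log2(TPM + 1), 1.14 without D31 and D32 and 1.67 with the 2 groups alone, and Cht5 was 1.14 with the 2 groups alone. Cpap3-d2 in F14_3N_FA over F2_3N_FA was 0.90 on log2(TPM + 0.1). With the 2 groups alone, calls appeared for Cpap3-b in F14_2N_FH over F2_2N_FH (-1.58), Cht5 in F15_1N_MH over F3_1N_MH (-0.82), Cpap3-b in F2_2N_FH over F3_1N_MH (1.27) and, in F14_2N_FH over F15_1N_MH, Cpap3-b (-1.06), Cpap3-d2 (-0.85) and Cht5 (0.75). Cpap3-b in F14_2N_FH over F14_2N_FA was 1.81 with RLE scaling, 1.82 with DESeq2, 1.304 on log2(TPM + 1), 2.05 on log2(TPM + 0.1) and 1.45 with the 2 groups alone.

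Without 1 library at a time, values lay between 0.69 and 1.38 for Cpap3-d2 in F14_3N_FH over F14_2N_FH, 1.02 and 1.85 for Cpap3-b in F14_3N_FA over F14_2N_FA, 0.61 and 0.97 for Cpap3-d2 and 1.05 and 1.47 for Cht5 in F3_2N_MH over F3_1N_MH, 0.53 and 0.92 for Cpap3-b in F3_2N_MA over F3_1N_MA, 1.303 and 1.99 for Cpap3-d2 in F14_3N_FH over F2_3N_FH, and 1.24 and 1.72 for Cpap3-b in F14_2N_FH over F14_2N_FA.

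Genes called over the whole table moved by over 1.5 times in some comparisons. With the 2 groups alone they were 378 for 1780 in F3_2N_MH over F3_1N_MH, 128 for 12 in F15_2N_MH over F15_1N_MH, 0 for 1259 in F15_2N_MA over F15_1N_MA, 4828 for 2156 in F14_2N_FH over F2_2N_FH, 308 for 1736 in F14_3N_FH over F2_3N_FH, 3039 for 1587 in F15_1N_MH over F3_1N_MH, 649 for 2015 in F15_2N_MH over F3_2N_MH, 2372 for 1051 in F14_2N_FH over F15_2N_MH, 4567 for 2835 in F2_2N_FH over F3_1N_MH and 3282 for 1127 in F14_2N_FH over F15_1N_MH. With DESeq2 they were 9.42 times as many in F15_2N_MH over F15_1N_MH, 2040 in F15_2N_MA over F15_1N_MA, 921 for 393 in the male head difference between generations and 1956 for 1184 in the male abdomen one. On log2(TPM + 1) and log2(TPM + 0.1) they were 960 and 907 in F3_2N_MH over F3_1N_MH, 1095 and 1089 in F14_3N_FH over F2_3N_FH and 216 and 200 in the male head difference, which had 135 with all heads fitted together. F15_2N_MH over F15_1N_MH had 6 on log2(TPM + 0.1), F14_2N_FH over F2_2N_FH 3257 on log2(TPM + 1), and F14_3N_FH over F2_3N_FH 3030 without D31 and D32. Without 1 library, 38 of 337 such counts moved that far (5 up, 33 down), and 199 of 1535 alternative counts of list genes did, 97 of them upward. RLE scaling moved the median of all genes by -0.46 to 0.31 on the log2 scale, and log2(TPM + 1) by -0.46 to 0.63.

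Counts in abdomens were low for Cpap3-d2, at 3 to 179 a library, and for Cpap3-b in triploid F2 females, at 0 or 1.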
